A study of Mus musculus with 8 samples.

Results

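Complement is a set of plasma and membrane proteins that tags particles and cells for removal. In the classical pathway the recognition molecule C1q, built of chains encoded by C1qa, C1qb and C1qc, sets off the cleavage of C4 and C2, and their fragments form the enzyme that cleaves C3. Serping1 encodes the C1 inhibitor, which blocks the proteases bound to C1q, Cd59a encodes a membrane protein that prevents assembly of the membrane attack complex, and C3ar1 encodes the receptor of the C3 fragment C3a. In nervous tissue C1q transcripts are known mainly from macrophages and microglia.

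The complement genes described here are these 9 (C1qa, C1qb, C1qc, C2, C3, C4b, Serping1, Cd59a and C3ar1), taken by their symbols from a count table of 54532 genes. Each symbol matched 1 row, and all 9 passed the filter on low counts. RNA came from dorsal root ganglia of spinal levels L3-L5, which hold the cell bodies of limb sensory neurons, of C57BL/6 mice. Both groups had osteoarthritis induced by injecting monosodium iodoacetate into a joint. MIA_Acu mice (4 libraries) were treated by hand with acupuncture needles at the point ST36, once a day for 7 days, and MIA mice (4 libraries) had no treatment. No mice without iodoacetate and none with sham needling were analysed here, and the sources used here give neither age nor sex. The submitters' design text speaks of 3 mice per group, and no label says which animal a library came from, so p-values cover only the spread of these libraries, which may be technical.

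Library totals were 35440711 to 36807864 counts in MIA_Acu and 32892804 to 40627041 counts in MIA. The columns numbered 3 in MIA_Acu and 4 in MIA match no sample title of their group, and the titles give the number 3 to MIA and the number 4 to MIA_Acu. Whether these columns were exchanged is not known. The fold changes of the 9 genes are therefore also given for the 6 libraries numbered 1, 2 and 5 in both groups. The 13 neuronal markers were all present, with a summed level of 12571 to 14166 CPM (counts scaled to the size of the library) in MIA_Acu and 14494 to 18884 CPM in MIA. Tissue that is not ganglion was present in unequal amounts. Skeletal muscle markers (7 genes) summed to 320 to 4680 CPM in MIA_Acu and to 30.6 to 3084 CPM in MIA, lowest in MIA 2. The 7 bone and cartilage markers summed to 592 CPM in MIA_Acu 3 and to between 26.5 and 72.1 CPM in the other libraries. Monocyte and neutrophil markers (12 genes) summed to 235 to 1139 CPM in MIA_Acu, highest in MIA_Acu 3, and to 339 to 644 CPM in MIA. Transcripts of 4 hepatocyte markers, of the cell type that makes most plasma complement, reached 0.246 CPM at most in sum. RNA was measured in bulk, so a change in the number of cells of a type and a change in RNA per cell cannot be told apart.

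By which MIA_Acu library was lowest, as described below, the 9 genes were put into 2 sets. Promoter windows of both sets are shown here, from 250 bases before to 50 bases after the RefSeq start site (GRCm38.p6, which is not the build named for the counts). RefSeq windows were at hand for 5 of the 9 genes. C1qb (chr4:136886151-136886450, strand minus) and C1qc (chr4:136892865-136893164, strand minus) are neighbours in 1 cluster with C1qa, while C3 (chr17:57228087-57228386, strand minus) and Cd59a (chr2:104095551-104095850, strand plus) belong to the other set. Capitals mark GAGGAA or its reverse complement, the core bound by PU.1, a transcription factor of the macrophage lineage.
C1qb: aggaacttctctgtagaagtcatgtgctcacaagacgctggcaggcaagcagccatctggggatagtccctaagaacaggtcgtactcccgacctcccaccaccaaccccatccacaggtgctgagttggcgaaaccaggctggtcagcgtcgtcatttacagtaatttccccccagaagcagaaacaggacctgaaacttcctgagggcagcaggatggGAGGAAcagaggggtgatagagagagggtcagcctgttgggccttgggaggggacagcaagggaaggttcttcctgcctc
C1qc: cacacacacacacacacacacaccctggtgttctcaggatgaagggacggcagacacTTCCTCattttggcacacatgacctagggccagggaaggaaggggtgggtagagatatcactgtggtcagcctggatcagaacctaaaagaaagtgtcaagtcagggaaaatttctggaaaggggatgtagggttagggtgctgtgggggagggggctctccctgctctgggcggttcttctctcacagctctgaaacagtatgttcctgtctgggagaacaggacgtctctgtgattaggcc
C3: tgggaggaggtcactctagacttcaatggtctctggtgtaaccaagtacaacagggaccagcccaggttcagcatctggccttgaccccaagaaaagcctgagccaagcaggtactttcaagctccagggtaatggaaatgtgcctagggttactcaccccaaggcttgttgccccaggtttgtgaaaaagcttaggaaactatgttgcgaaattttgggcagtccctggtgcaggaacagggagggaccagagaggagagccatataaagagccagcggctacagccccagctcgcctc
Cd59a: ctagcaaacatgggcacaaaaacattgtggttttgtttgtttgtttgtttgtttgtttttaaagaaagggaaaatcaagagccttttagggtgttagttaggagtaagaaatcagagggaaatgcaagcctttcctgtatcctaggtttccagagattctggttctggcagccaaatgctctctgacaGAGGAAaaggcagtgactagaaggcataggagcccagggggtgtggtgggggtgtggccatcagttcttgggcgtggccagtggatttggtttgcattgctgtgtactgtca
The core occurred once in the windows of C1qb, at position -30 from the start, of C1qc, at -193 on the opposite strand, and of Cd59a, at -62. It was not in those of C3 and C3ar1. Of 32841 RefSeq windows of this length, 28.3% hold it on either strand. GAAANNGAA, the main part of the interferon-stimulated response element, was found in Cd59a alone of the 5, at -187 and not overlapping the PU.1 core, and 8.56% of all windows hold it. The gamma-activated site TTCNNNGAA was in none of the 5, and 8.3% of all windows hold it.

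Levels of the 9 genes spanned a wide range. Per kilobase of the longest coding transcript, and over all 8 libraries, Cd59a was at 81.6 ± 17.6 CPM and Serping1 at 62.1 ± 7.43 CPM (SD, n = 8). C4b followed at 19.2 ± 5.01, C1qa at 12.6 ± 3.57, C1qb at 11.3 ± 3.2, C3 at 8.37 ± 3.58 and C1qc at 7.73 ± 2.9 CPM per kilobase. C3ar1 was at 0.703 ± 0.251 and C2 at 0.47 ± 0.135 CPM per kilobase. The ranges of Serping1 and C4b did not overlap, nor did those of C1qc and C3ar1. The ranges of all other neighbours in this order overlapped. Compared within each library, Cd59a was above Serping1 and C3ar1 above C2 in 8 of 8 libraries, and C4b above C1qa in 7. C1qb was above C3 in 6, C1qa above C1qb in 5 and C3 above C1qc in 4 of the 8 libraries.

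In the comparison of the groups, the mean level of all 9 genes was higher in MIA_Acu than in MIA, and none passed the test: edgeR's quasi-likelihood test called 0 of the 9 at an adjusted p under 0.05, as it called 0 of all 18971 genes tested (0%). At an unadjusted p under 0.05 stood 1 of the 9, C1qa, against 21.8% of all genes tested. DESeq2 called C1qa (adjusted p = 0.0384, higher; 4.43% of all genes tested were called higher by DESeq2), and limma voom called 0 of the 9; DESeq2 gave C2 no adjusted p. Log2 fold changes of the 9 lay between 0.15 and 0.59 with a median of 0.34, beside a median of 0.02 and a share of 52.9% above 0 over all genes tested. None of the 9 had all MIA_Acu libraries above all MIA libraries, which held for 4.95% of all genes tested.

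**Figure D1:**
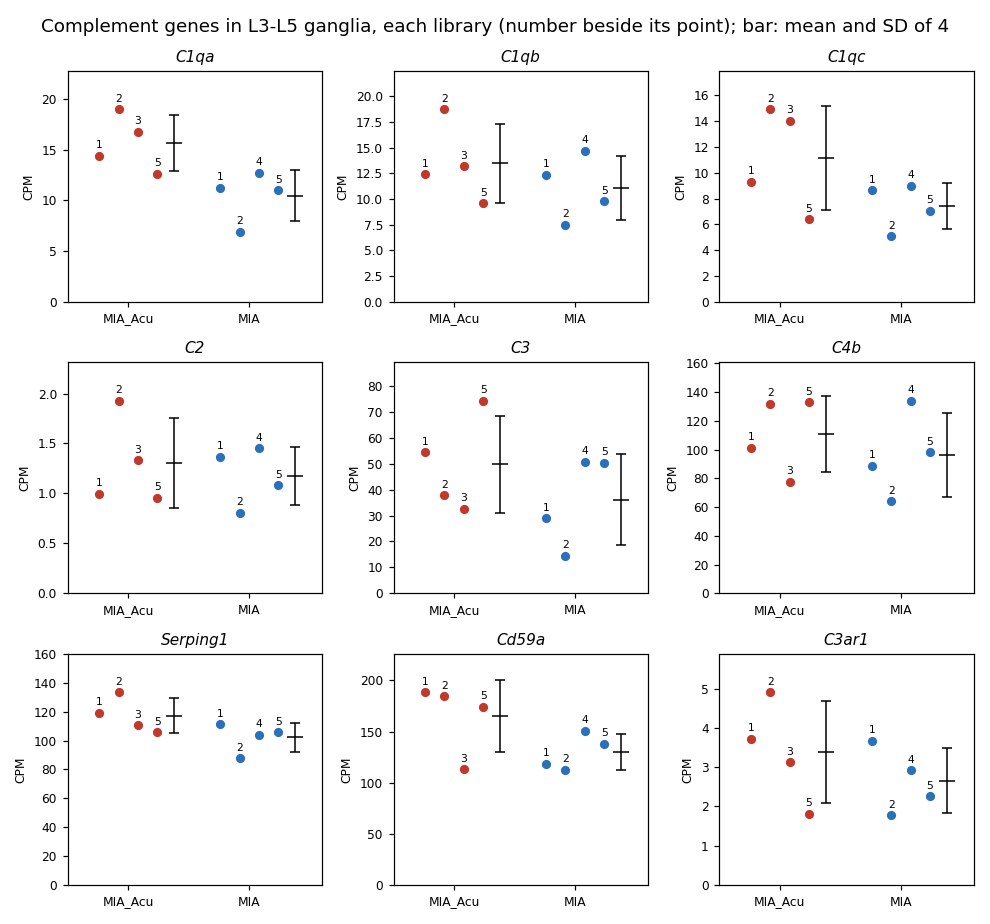
Level of each of the 9 complement genes in CPM (y axes, from 0) in each MIA_Acu and MIA library, with the library number beside its point and the mean and SD of the 4 libraries as a black bar. MIA 2 is the lowest library in all 9 panels, and in each panel the groups overlap.

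C1q, the recognition molecule, was measured through its 3 chains. C1qa was at 14.4, 19.0, 16.8 and 12.6 CPM in the MIA_Acu libraries numbered 1, 2, 3 and 5, against 11.2, 6.91, 12.8 and 11.0 CPM in the MIA libraries numbered 1, 2, 4 and 5. All MIA_Acu libraries lay above the MIA mean, and the groups overlapped only through MIA_Acu 5 and MIA 4. The fold was 1.5, with a 95% interval of 1.11 to 2.03 (log2 fold change 0.58, SE 0.19, unadjusted p = 0.0137, edgeR adjusted p = 0.144). In the 6 libraries the log2 fold change was 0.65 (SE 0.22, adjusted p = 0.0971), and with the groups of MIA_Acu 3 and MIA 4 exchanged it was 0.36 (adjusted p = 0.46).

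C1qb, the second chain, was at 12.4, 18.7, 13.2 and 9.58 CPM in MIA_Acu 1, 2, 3 and 5, against 12.3, 7.48, 14.7 and 9.78 CPM in MIA 1, 2, 4 and 5. The groups were mixed: MIA 4 stood above all MIA_Acu libraries but MIA_Acu 2, and MIA_Acu 5 below all MIA libraries but MIA 2. Its fold was 1.22 with an interval of 0.837 to 1.77 (adjusted p = 0.527), and the log2 fold change was 0.28 (SE 0.24) in 8 libraries and 0.45 (SE 0.26, adjusted p = 0.309) in the 6. C1qc, the third chain, was at 9.3, 14.9, 14.0 and 6.4 CPM in MIA_Acu 1, 2, 3 and 5, against 8.64, 5.08, 8.96 and 7.05 CPM in MIA 1, 2, 4 and 5. MIA_Acu 1, 2 and 3 were above all MIA libraries, and MIA_Acu 5 was below all but MIA 2. The fold of C1qc was 1.5 with an interval of 0.978 to 2.3 (adjusted p = 0.25). Its log2 fold change was 0.59 in 8 libraries, 0.55 (SE 0.31, adjusted p = 0.293) in the 6, and 0.19 (adjusted p = 0.801) with the exchange.

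C1q needs its chains in equal numbers, and their transcript proportions could be compared within each library, free of scaling between libraries. C1qb made up 34.4%, 35.6%, 29.9% and 33.5% of the summed CPM of C1qa, C1qb and C1qc in MIA_Acu 1, 2, 3 and 5, against 38.3%, 38.4%, 40.3% and 35.2% in MIA 1, 2, 4 and 5. MIA_Acu 2 was the only library of its group above any MIA library, and the difference was -4.71 percentage points (two-sided exact permutation test, p = 0.0571, 0.171 adjusted over the 3 chains, where 0.0286 is the smallest p that 4 against 4 allows). The libraries with unmatched numbers were the lowest, MIA_Acu 3, and the highest, MIA 4. In the 6 libraries, a comparison added after the data were seen, the C1qb share was 34.5 ± 1.04% in MIA_Acu and 37.3 ± 1.84% in MIA (SD, n = 3), a difference of -2.81 percentage points (exact permutation p = 0.2, adjusted 0.3, where 0.1 is the smallest p that 3 against 3 allows). With the groups of MIA_Acu 3 and MIA 4 exchanged the difference was 0.48 points. The share of C1qa was 39.6 ± 3.4% in MIA_Acu and 36.2 ± 2.19% in MIA (SD, n = 4, exact permutation p = 0.171, adjusted 0.257). That of C1qc was 27.1 ± 4.01% in MIA_Acu and 25.7 ± 0.958% in MIA (SD, n = 4, exact permutation p = 0.571, adjusted 0.571). In the 6 libraries the C1qa difference was 3.42 points (exact permutation p = 0.2) and the C1qc difference -0.60 points (exact permutation p = 0.8). None of the shares passed the test.

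**Figure D2:**
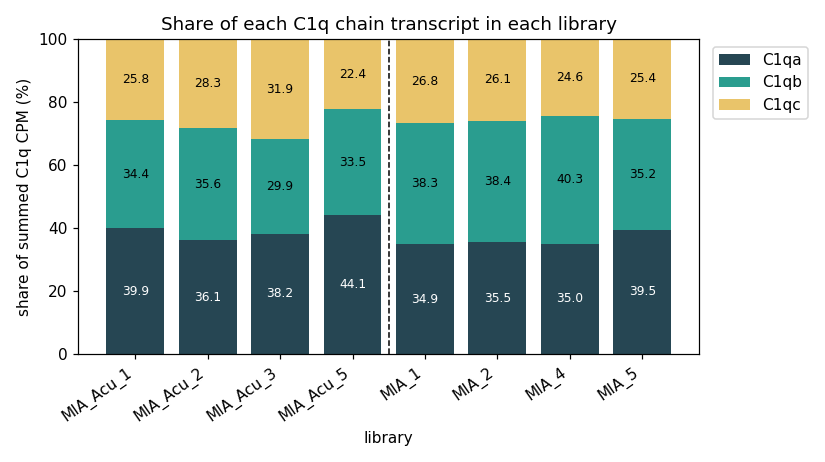
Share of C1qa, C1qb and C1qc (stacked, in percent) in their summed CPM in each library, MIA_Acu left of MIA. The C1qb share is 29.9% to 35.6% in MIA_Acu and 35.2% to 40.3% in MIA.

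C3, the central protein of all complement pathways, had the widest range of the 9 genes, by its highest over its lowest library. It was at 54.5, 37.7, 32.7 and 74.3 CPM in MIA_Acu 1, 2, 3 and 5, against 28.9, 14.5, 50.8 and 50.4 CPM in MIA 1, 2, 4 and 5. MIA_Acu 5 was highest and MIA 2 lowest, 5.12-fold apart, and MIA 4 and 5 were above MIA_Acu 2 and 3. The coefficient of variation of C3 was 37.7% in MIA_Acu and 48.9% in MIA, and the fold of 1.38 had an interval of 0.759 to 2.5 (adjusted p = 0.516). The log2 fold change of C3 was 0.46 in 8 libraries, 0.82 (SE 0.41, adjusted p = 0.233) in the 6 and 0.78 (adjusted p = 0.249) with the exchange. It was 0.20 without MIA 2, and likewise 0.20 without MIA_Acu 5. C4b, whose product is the C4 of the classical convertase, was at 101, 132, 77.4 and 133 CPM in MIA_Acu 1, 2, 3 and 5, against 88.9, 64.1, 134 and 98.0 CPM in MIA 1, 2, 4 and 5. Both libraries with unmatched numbers went against their groups here: MIA 4 was the highest of all 8 and MIA_Acu 3 the second lowest. The log2 fold change of C4b was 0.20 (SE 0.23, adjusted p = 0.64) in 8 libraries, 0.54 (SE 0.17, adjusted p = 0.0777) in 6 and 0.61 (adjusted p = 0.0611) with the exchange. C4a, its near-identical copy, was at 0.933 ± 0.579 CPM in MIA_Acu and 0.727 ± 0.0972 CPM in MIA (SD, n = 4), and how reads were divided between the 2 genes is not given.

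C2, the protease precursor of the classical convertase, was the scarcest of the 9 per kilobase, with 35, 69, 49 and 35 counts in MIA_Acu 1, 2, 3 and 5, against 45, 31, 55 and 44 counts in MIA 1, 2, 4 and 5. The groups were mixed, at 1.3 ± 0.448 CPM in MIA_Acu and 1.18 ± 0.292 CPM in MIA (SD, n = 4), with a fold of 1.11 and an interval of 0.687 to 1.79 (adjusted p = 0.818). In the 6 libraries its log2 fold change was 0.25 (SE 0.38, adjusted p = 0.721), beside 0.15 in 8. In the GENCODE annotation C2 shares exonic sequence with Zbtb12 on the opposite strand and with Gm20547, and the strand setting of the counting is not given, so some of these counts may belong to either gene.

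Of the regulators, Serping1 was the steadiest of the 9 genes. It was at 119, 133, 110 and 106 CPM in MIA_Acu 1, 2, 3 and 5, against 111, 87.8, 104 and 106 CPM in MIA 1, 2, 4 and 5. All MIA_Acu libraries were above the MIA mean, and MIA 2 alone was below 100 CPM. The fold was 1.15 with an interval of 0.989 to 1.33 (adjusted p = 0.258). The log2 fold change was 0.20 in 8 libraries and 0.23 (SE 0.11, adjusted p = 0.242) in the 6, and the coefficient of variation was 10.4% in MIA_Acu and 9.86% in MIA.

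Cd59a, the most abundant of the 9, was at 188, 184, 113 and 174 CPM in MIA_Acu 1, 2, 3 and 5, against 119, 113, 151 and 138 CPM in MIA 1, 2, 4 and 5. MIA_Acu 1, 2 and 5 were above every MIA library, while MIA_Acu 3 was level with MIA 2. In 8 libraries the fold was 1.27 with an interval of 0.99 to 1.63 (adjusted p = 0.245). In the 6 libraries Cd59a rose in MIA_Acu, with a fold of 1.48 (log2 fold change 0.56, SE 0.09, edgeR adjusted p = 0.0185), the only 1 of the 9 called there, beside 6.22% of all genes tested called higher. With only 1 of the unmatched libraries left out, Cd59a was not called. Its edgeR adjusted p was 0.0894 without MIA_Acu 3, where 0 of all genes tested were called. It was 0.157 without MIA 4, where 1340 were called. With the groups of these 2 libraries exchanged, Cd59a was called as well (log2 fold change 0.53, adjusted p = 0.0482). Cd59b, the neighbouring copy of the gene, was at 1.96 ± 0.539 CPM in MIA_Acu and 1.49 ± 0.108 CPM in MIA (SD, n = 4).

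The receptor gene C3ar1 was at 3.74, 4.92, 3.13 and 1.81 CPM in MIA_Acu 1, 2, 3 and 5, against 3.68, 1.77, 2.93 and 2.26 CPM in MIA 1, 2, 4 and 5. The groups were mixed, with MIA_Acu 2 highest and MIA 2 lowest. Its fold was 1.28 with an interval of 0.771 to 2.12 (adjusted p = 0.559), with a log2 fold change of 0.35 in 8 libraries and 0.43 (SE 0.40, adjusted p = 0.533) in the 6.

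**Figure D3:**
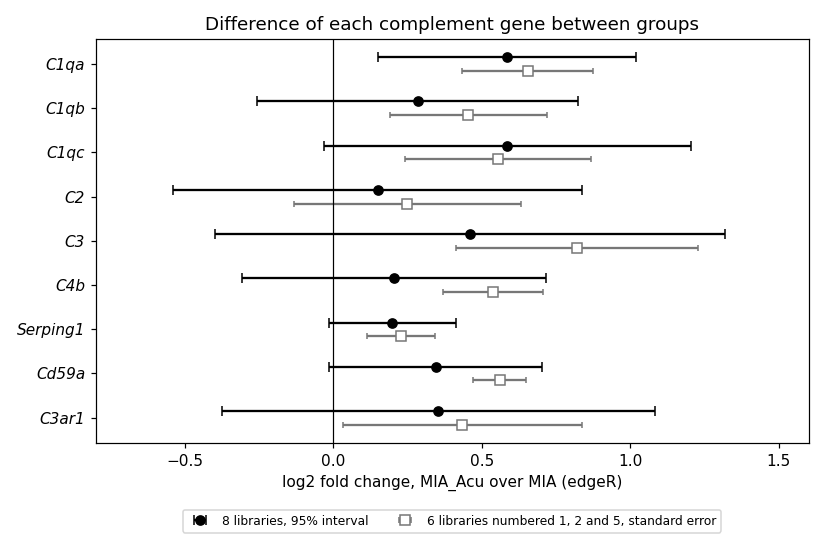
Log2 fold change of MIA_Acu over MIA (x axis) for the 9 genes, in 8 libraries with 95% intervals (filled points) and in the 6 libraries numbered 1, 2 and 5 with standard errors (open squares). All estimates are above 0, the 8-library interval of C1qa alone excludes 0, and Cd59a is the gene called in 6 libraries.

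The size of the differences depended on a library at each end, while the direction mostly did not. MIA 2 was the lowest of the 8 libraries for all 9 genes, and MIA_Acu 2 the highest for 6 of them. Without MIA 2 the median log2 fold change of the 9 was 0.20, with all 9 still above 0, though C2 was only at 0.0048 and C4b at 0.051. Without MIA_Acu 2 the median was 0.13, with 8 of 9 above 0, C1qb at 0.082 and C2 at -0.10. MIA 2 also had the lowest summed macrophage markers of the 8 (164 CPM, against 175 to 285 CPM in the others), the lowest fibroblast markers (607 CPM, against 1397 to 5734 CPM) and the lowest myelinating Schwann cell markers (7031 CPM, against 14642 to 39842 CPM). Skeletal muscle markers were lowest in MIA 2 as well (30.6 CPM, against 320 to 4680 CPM), and neuronal markers highest (18884 CPM). The part of these differences in the complement values was not tested.

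Within the groups, the 9 genes did not all order the libraries alike. By the library at the bottom of MIA_Acu they were put into 2 sets: MIA_Acu 5 for 6 genes and MIA_Acu 3 for 3. C1qa, C1qb, C1qc and C2 gave the same order, with 2 above 3, 1 and 5 in MIA_Acu and 4 above 1, 5 and 2 in MIA. For C2, MIA_Acu 1 and 5 both had 35 counts, so its bottom library in MIA_Acu rests on the scaling to library size alone. C3ar1 and Serping1 also had MIA_Acu 2 on top and MIA_Acu 5 at the bottom, but ran 2, 1, 3 and 5. In MIA, C3ar1 ran 1, 4, 5 and 2 and Serping1 ran 1, 5, 4 and 2, unlike the C1q genes. C3, C4b and Cd59a instead had MIA_Acu 3 at the bottom of its group, and all 3 ranked MIA 4 above 5, 1 and 2. Above MIA_Acu 3 the order was 5, 1 and 2 for C3, 5, 2 and 1 for C4b, and 1, 2 and 5 for Cd59a. Relative to the mean of the 8 libraries, MIA_Acu 5 was at 0.93 for C3 and at -0.45 for C1qc on the log2 scale, and MIA_Acu 3 at -0.25 for C3 and at 0.68 for C1qc.

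Marker lists of several cell types shared an order with some of the 9 genes in at least 1 group. The 17 macrophage markers, which hold no complement gene, summed to 180 to 285 CPM in MIA_Acu and 164 to 192 CPM in MIA, with 14 of 17 higher in MIA_Acu. Their order in MIA was that of the C1q genes, and in MIA_Acu it was 3, 2, 1 and 5. The summed C1q transcripts were 18.2%, 20.9%, 15.4% and 15.9% of the macrophage sum in MIA_Acu 1, 2, 3 and 5, against 18.2%, 11.9%, 18.9% and 15.9% in MIA 1, 2, 4 and 5, so that the groups overlapped. The 10 myelinating Schwann cell markers summed to 21040 to 39842 CPM in MIA_Acu and 7031 to 25262 CPM in MIA, with all 10 higher in MIA_Acu. Their order was that of C4b in both groups: 5, 2, 1 and 3 in MIA_Acu, and 4, 5, 1 and 2 in MIA. The neuronal sum ran 1, 3, 2 and 5 in MIA_Acu and 2, 5, 1 and 4 in MIA. That of the 4 satellite glia markers ran 2, 1, 3 and 5 in MIA_Acu (2409 to 2694 CPM), the order of Serping1 and C3ar1. In MIA the satellite glia sum ran 5, 2, 4 and 1 (2290 to 2780 CPM). The 9 fibroblast markers (2180 to 5734 CPM in MIA_Acu, 607 to 1841 CPM in MIA) and the 9 endothelial markers (316 to 420 CPM in MIA_Acu, 220 to 271 CPM in MIA) did not overlap between groups and were highest in MIA_Acu 3. In MIA the fibroblast order was that of C3, C4b and Cd59a, and the endothelial order that of the C1q genes. Pearson's correlation of log2 levels was taken after the mean of each group was removed. For summed C1q it was 0.77 with the macrophage, 0.72 with the fibroblast, 0.68 with the endothelial and 0.48 with the myelinating Schwann cell list. With the fibroblast and macrophage lists it was 0.80 and 0.68 for C1qa, 0.57 and 0.65 for C1qb, and 0.73 and 0.89 for C1qc. With the myelinating Schwann cell list it was 0.95 for C4b, 0.87 for C3 and 0.79 for Cd59a. The 10 interferon response genes, which answer a signal that can also induce several complement genes, summed to 164 to 439 CPM in MIA_Acu and 186 to 216 CPM in MIA. Spinal cord markers reached 307 and 349 CPM in MIA_Acu 2 and 5, but 23.2 and 53.9 CPM in MIA_Acu 1 and 3, against 26.5 to 102 CPM in MIA. The part of each of these cell types and tissues in the complement values was not tested.

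**Figure D4:**
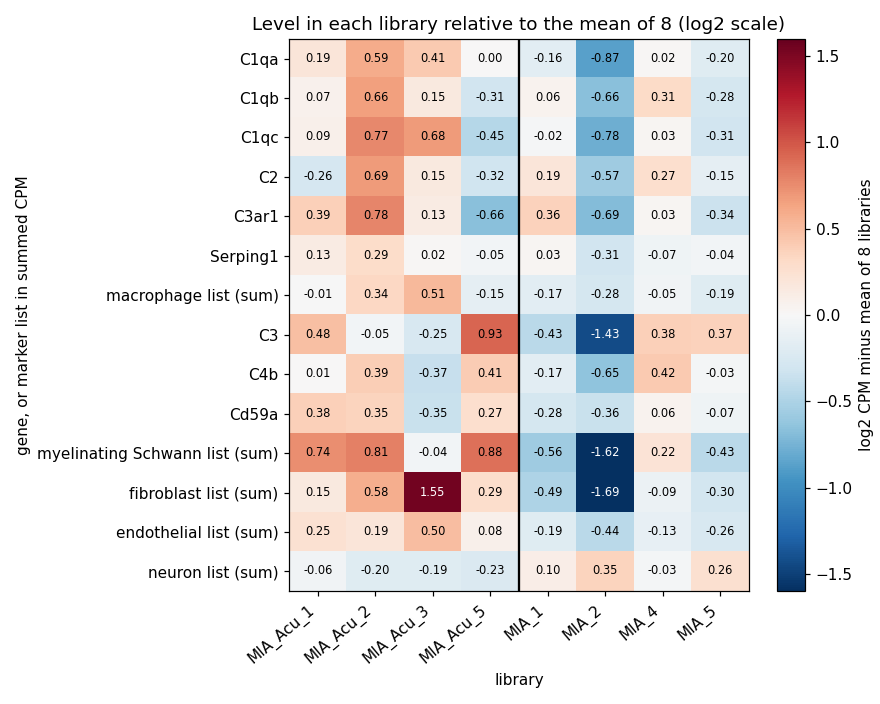
Log2 CPM of each complement gene, and of 5 marker lists by summed CPM, in each library minus the mean of the 8 libraries, with MIA_Acu left of MIA. The rows down to the macrophage list are highest in MIA_Acu 2 or 3, the rows of C3, C4b and Cd59a are lowest within MIA_Acu in MIA_Acu 3, and MIA 2 is the lowest library in all rows but the neuron list.

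The genes whose levels were most like those of the complement genes were sought among 13105 genes, by Pearson's correlation of log2 CPM over the 8 libraries after the mean of each group was taken off. These values are the highest of many and are given as a description. For the summed C1q transcripts they were H2-Aa (r = 0.987), an MHC class II chain, Hdac1 (0.98), Stab1 (0.969), a scavenger receptor, Dab2 (0.968), an endocytic adaptor, and Mettl23 (0.968). For C4b they were Phldb1 (r = 0.999), Lurap1 (0.994), Plekhb1 (0.993), Map3k11 (0.992) and Sirt2 (0.992), a deacetylase. For C3 they were Rbl2 (r = 0.988), Dchs2 (0.983), Them5 (0.98), Car13 (0.976) and Ero1lb (0.972). For Serping1 they were Tor1b (r = 0.978), Tmem159 (0.968), Hsf1 (0.965), Ubxn2b (0.941) and Cbr2 (0.939). No gene appeared in more than 1 of these sets.

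Beyond the 9 genes, a list of 47 other complement genes was examined by role, and 35 passed the filter on low counts. In 8 libraries 0 of the 35 were called by edgeR (6 of 35 had an unadjusted p under 0.05, beside 21.8% of all genes tested). DESeq2 called 4 of the 35, 1 higher (Cd93) and 3 lower (Csmd1, Susd4 and Clu), beside 9.24% of all genes called in either direction. The voom test of limma called 0. Of the 35, 24 had a log2 fold change above 0, and their median was 0.17. In the 6 libraries 3 of 34 were called, 1 higher and 2 lower, beside 6.22% of all genes called higher and 4.14% called lower, and 17 of 34 were above 0, beside 49.7% of all genes.

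The proteases C1r and C1s, which C1q carries, were present through C1ra and C1s1. C1ra was at 12.3 ± 2.63 CPM in MIA_Acu and 8.82 ± 3.64 CPM in MIA, and C1s1 at 23.6 ± 4.93 CPM in MIA_Acu and 17.4 ± 6.06 CPM in MIA (SD, n = 4; adjusted p = 0.375 for C1ra and 0.359 for C1s1). Of 9 lectin pathway genes 7 were tested and 4 had a log2 fold change above 0, with Masp1, a protease of that pathway, at 11.3 ± 1.9 CPM in MIA_Acu and 12.1 ± 1.21 CPM in MIA, and Colec12 at 14.9 ± 8.1 CPM in MIA_Acu and 8.9 ± 2.93 CPM in MIA. Of the alternative pathway, properdin (Cfp) was at 8.29 ± 1.64 CPM in MIA_Acu and 6.78 ± 1.79 CPM in MIA, and factor D (Cfd), which is also made by fat cells, at 6.88 ± 4.52 CPM in MIA_Acu and 3.13 ± 2.9 CPM in MIA. Cfd was highest, at 13.3 CPM, in MIA_Acu 3, where 5 adipocyte markers summed to 52.3 CPM against 17.5 CPM at most in the other libraries, and its part in the Cfd value was not tested. Factor B (Cfb) did not pass the filter. None of these genes passed the test in 8 or 6 libraries.

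The terminal components were scarce. Of C6, C7, C8a, C8b, C8g and C9 only C7 and C8g passed the filter, and C8a had no count in any library. C7 was at 0.585 ± 0.243 CPM in MIA_Acu and 0.824 ± 0.38 CPM in MIA, and C8g at 1.83 ± 0.17 CPM in MIA_Acu and 1.63 ± 0.377 CPM in MIA (SD, n = 4). Hc, which encodes C5, was at 1.09 ± 0.237 CPM in MIA_Acu and 1.22 ± 0.0766 CPM in MIA (SD, n = 4). None of these passed the test.

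The 6 of the 35 tested genes with an unadjusted edgeR p under 0.05 were all listed as regulators or receptors. These roles held 5 secreted regulators, 6 membrane regulators and 8 receptors of the 35. Over all genes tested, 21.8% had such a p-value, so no preference for a role is read from this. Csmd1, whose product inhibits complement and which neurons express, was at 56.0, 57.2, 56.4 and 61.4 CPM in MIA_Acu 1, 2, 3 and 5, against 80.9, 85.1, 74.9 and 73.5 CPM in MIA 1, 2, 4 and 5. The groups did not overlap; 5.9% of all genes tested had all MIA_Acu libraries below all MIA libraries. Csmd1 had an edgeR adjusted p of 0.0881 in 8 libraries and fell in the 6 (log2 fold change -0.46, adjusted p = 0.0188). Susd4, another membrane inhibitor, was at 58.0 ± 3.32 CPM in MIA_Acu and 70.9 ± 8.82 CPM in MIA (SD, n = 4, adjusted p = 0.137) and fell in the 6 libraries (log2 fold change -0.34, adjusted p = 0.0405). Clusterin (Clu), a secreted inhibitor of the terminal complex, was at 238 ± 30.0 CPM in MIA_Acu and 299 ± 24.3 CPM in MIA (SD, n = 4, edgeR adjusted p = 0.125, and 0.0948 in the 6 libraries). DESeq2 gave Clu an adjusted p of 0.0264 in 8 libraries. Vtn, another secreted regulator, was instead higher, at 29.3 ± 4.4 CPM in MIA_Acu and 18.8 ± 8.2 CPM in MIA (SD, n = 4, edgeR adjusted p = 0.219). In the 6 libraries the log2 fold change of Vtn was 0.81 (edgeR adjusted p = 0.0726). The neuronal marker list lay lower in MIA_Acu in all 13 members, and its part in these values was not tested.

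Cd93, a membrane protein of endothelium once described as a C1q receptor, was also higher in MIA_Acu. It was at 45.1, 38.0, 55.1 and 33.1 CPM in MIA_Acu 1, 2, 3 and 5, against 28.3, 25.0, 28.0 and 29.5 CPM in MIA 1, 2, 4 and 5, without overlap. Of all genes tested, 4.95% had all MIA_Acu libraries above all MIA libraries. The edgeR adjusted p of Cd93 was 0.0881 in 8 libraries, and it rose in the 6 (log2 fold change 0.48, adjusted p = 0.0438). The endothelial list did not overlap between groups either, and its part in the Cd93 values was not tested. Decay-accelerating factor (Cd55) was the most abundant gene of the list, at 411 ± 80.8 CPM in MIA_Acu and 471 ± 64.9 CPM in MIA (SD, n = 4, adjusted p = 0.467). C1qbp, a mitochondrial protein that can bind C1q, was at 41.7 ± 1.46 CPM in MIA_Acu and 46.6 ± 2.96 CPM in MIA (SD, n = 4, adjusted p = 0.206).

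**Figure D5:**
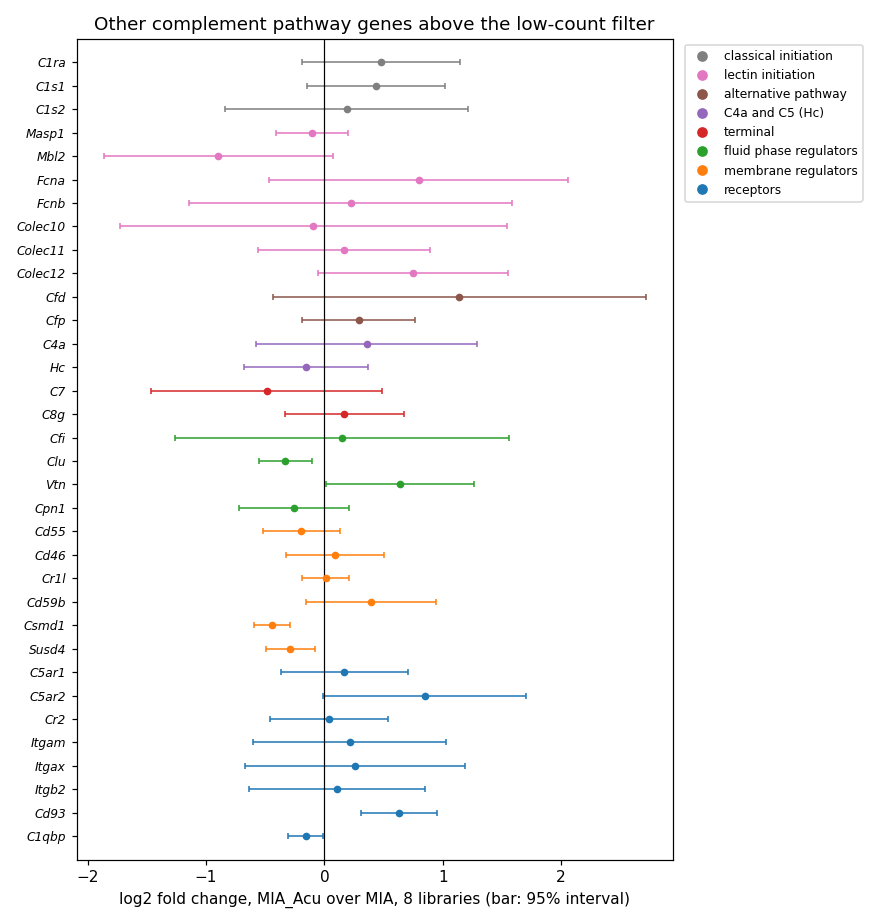
Log2 fold change of MIA_Acu over MIA in 8 libraries with 95% intervals (x axis) for 34 of the 35 tested genes of the wider complement list, coloured by role. Intervals that exclude 0 lie above it for Cd93 and Vtn, and below it for Csmd1, Susd4, Clu and C1qbp.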

How the data were processed

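The authors deposited raw read counts per Ensembl gene, 1 column per library, with gene symbols. Per the submitters' processing notes, FastQC, Trimmomatic and the build GRCm39 (mm39) were used; poly(A) RNA libraries were made with a NEBNext Ultra kit, per the labels' protocols. The aligner, counter, strand setting and annotation are not named there or in the labels, and 20427 rows hold no count. Columns took their group from their name.

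Counts were tested with edgeR 4.0.16 in R 4.3.3 (quasi-likelihood test, group as the only term, filterByExpr with a minimum count of 10 and a minimum total of 15, TMM) with Benjamini-Hochberg adjustment over all 18971 genes tested and a threshold of 0.05. Standard errors and 95% intervals come from the F statistic. CPM uses TMM-scaled library sizes, log2 CPM a prior count of 2, and values per kilobase the longest coding transcript in GENCODE M21. On simulated counts of 8 libraries, the test called 7 of 50 genes (14%) with a true log2 fold change of 0.5 in either direction. It called 59.6% of those with a true change of 1, beside 5 false calls.

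The 9 genes and all lists were chosen with earlier results of these data known. Of the wider list the text names those called in 8 or 6 libraries, the 4 smallest p-values and the 2 highest mean levels per role, with Cd59b, Cfb and Vtn added after their values were seen; 1 gene that this rule names is not reported here. Alternatives were DESeq2 size factors, no filter, a stricter filter (10 counts in 4 libraries and log2 CPM of 1), each library left out, the libraries numbered 1, 2 and 5 with and without a replicate block, DESeq2 1.42.0, limma 3.58.1 voom, and exchange of the groups of the 2 libraries with unmatched numbers; those for the C1q shares were added after the data were seen. Libraries of a group differed from each other by more than sampling noise (chi-square per degree of freedom of 17.9 or more).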

Additional observations from a re-analysis of the deposited data

Results flagged for a closer look

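The share of C1qa in the summed C1q transcripts was 39.5% in MIA 5, against 34.9% to 35.5% in the other MIA libraries, a gap of 0.87 of the range of the group. It was the only 1 of 26 sets of 4 libraries (levels of the 9 genes, their C1q sum and the 3 shares, in each group) in which the highest or lowest library stood this far from the others, and chance gives about 1 in 20. All MIA_Acu libraries were above the other 3 MIA libraries for this share, at 36.1% to 44.1%.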

How the results depend on the processing

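Of 143 values of the 9 genes under 16 alternatives, 137 kept their direction and their side of the threshold, 5 passed it and 1 changed sign. C2 turned to -0.10 without MIA_Acu 2, the lowest of -0.10 to 0.27 over the libraries left out, and the stricter filter left C2 out. C1qa passed with DESeq2, Cd59a in the 6 libraries with and without the replicate block and with the exchange, and C3 in the 6 libraries with the replicate block alone (log2 fold change 0.94, adjusted p = 0.026). The count of the 9 called was thus 0 in 8 libraries, 1 in the 6 libraries, 2 there with the replicate block, 1 with DESeq2 and 1 with the exchange. All genes called were 0 in 8 libraries, 6 with no filter, 1753 with DESeq2, 207 with the exchange, 0 to 1340 when 1 library was left out (1340 without MIA 4), 1963 in the 6 libraries and 1486 there with the replicate block. Of the wider list, 3 were called in the 6 libraries, 1 with the block (Csmd1; adjusted p = 0.0754 for Susd4 and 0.0577 for Cd93), 4 with DESeq2 and 0 to 2 with 1 library left out (2 without MIA 4). Its median log2 fold change was 0.020 in the 6 libraries, 0.030 with the block, -0.18 with the exchange and 0.026 to 0.26 with 1 library left out, and 14 of 21 genes were higher with the stricter filter and 13 of 35 with the exchange. The shares of the C1q chains were recomputed under 10 alternatives added after the data were seen. The C1qb difference turned to 0.48 points with the exchange, and that of C1qc to -0.60 in the 6 libraries, -2.27 with the exchange and -0.23 without MIA_Acu 3 (-0.23 to 2.92 with 1 library left out). The cause was not tested.

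Same-numbered libraries correlated at 0.068 to 0.267 in their deviations from the group means. This was over 0.1 in 2 of 3 pairs and not in all 3, and no label pairs the libraries, so the numbers were not taken as pairs. As 5 of 6 libraries correlated best with their own number, a pairing is not excluded, and values with the replicate block are given above. C2, with 31 to 69 counts, had the least depth.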
